A study of Mus musculus with 12 samples.

Results

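Chemokines are small secreted proteins that guide the migration of cells through receptors coupled to G proteins. Most are produced during inflammation, but a few are made constantly by the healthy brain, where neurons, glia and vessels use them to signal to microglia and to precursor cells. Ccl25, also called thymus-expressed chemokine, is best known from thymus and small intestine, where it attracts thymocytes and gut-homing lymphocytes that carry its receptor Ccr9. The genes described here are Ccl25, Ccr9 and 8 further members of the chemokine system, Ccl27a, Ccl3, Ccl4, Cx3cl1, Cxcl12, Cxcl14, Cxcl16 and the receptor Cxcr4, 10 of the 27131 genes in the table. They were taken by name from measured values. Ccl25 was picked because it was among the 4 genes that differed between Old and WT brains, Ccr9 because it is the receptor of Ccl25, and the others for their levels in brain or their place in the family. The levels of all 10 and the differences of Ccl25 are therefore descriptions, and tests are given only for differences of the other members.

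RNA was sequenced from the brains of 12 mice aged 6 weeks, 4 in each of 3 groups. The Old and New groups are 2 separate strains of C57BL/6J-Plat-/- mice, which carry a knockout of the gene for tissue-type plasminogen activator, a secreted protease, and the WT group is wild-type C57BL/6J. The labels give no treatment, the tissue is labelled cerebral cortex, and the dissection removed only the olfactory bulb and cerebellum. The sources used here do not state how either Plat allele was made, the sex of the mice or whether any shared a litter. WT mice were bought and Plat-/- mice came from the laboratory's own housing, so origin and genotype cannot be told apart in a comparison with WT.

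Values are FPKM, fragment counts scaled for transcript length and library size, which lets levels of different genes be set side by side. Plat itself averaged 1.76 FPKM in Old, 2.88 FPKM in New and 8.43 FPKM in WT brains. Markers of cortical excitatory neurons were present in every library (Slc17a7 at 161 FPKM or more), and so was Ttr, a transcript of choroid plexus (154 FPKM or more), so the material was not cortex alone. The libraries Old 1 and WT 4 stood apart from the rest. Their Spearman correlation across tested genes was 0.964 with each other and 0.921 to 0.939 with the other 10 libraries. Values without this pair are also given for some of the results that rest on it. Unless stated, means, tests and marker sums include both libraries. Ddx3y, a gene of the Y chromosome, was present in Old 1, Old 4, New 1 and WT 4 and at or below 0.024 FPKM in the other libraries, so each group was mixed.

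The names of chemokine families describe the spacing of the first pair of conserved cysteines, which fold the protein through disulfide bonds. The coding sequence around that pair is shown here for 7 of the ligands, because it is what places each of them in its family. Each run is 30 bases of the mm10 genome in coding direction, and capitals mark the 2 cysteine codons.
Ccl25: gcctttgaagacTGCTGCctgggttaccag
Ccl27a: tccagcactagcTGCTGTactcagctctat
Ccl4: cctcccacttccTGCTGTttctcttacacc
Cxcl12: agctaccgaTGCcccTGCcggttcttcgag
Cxcl14: gggtccaagTGTaagTGTtcccggaagggg
Cxcl16: gctggaagtTGTtctTGTgatcgtaccatt
Cx3cl1: acgaaaTGCgaaatcatgTGCgacaagatg
In Ccl25, Ccl27a and Ccl4 the cysteine codons were adjacent, which defines the CC family. In Cxcl12, Cxcl14 and Cxcl16 a single codon lay between them, and in Cx3cl1 there were 3, the spacing that gives fractalkine its CX3C name. The Ccl25 stretch lies in exon 3 of 6 at chr8:4353885-4353914 on the plus strand, and the pair falls on codons 30 and 31 of 143. The Cx3cl1 stretch lies in exon 2 of 3 at chr8:94778045-94778074 on the plus strand, so both genes are on chromosome 8, as is Plat. The run of Cxcl14 joins the end of exon 1 to the start of exon 2 on the minus strand of chromosome 13, within chr13:56295903-56296110, and each of the others lies within exon 2. They stand at chr4:41769933-41769962 for Ccl27a and chr11:70459115-70459144 for Cxcl16 on the minus strand, and at chr11:83663470-83663499 for Ccl4 and chr6:117171499-117171528 for Cxcl12 on the plus strand. Of the receptors, which have no such motif, Ccr9 is at chr9:123678439-123784330 on the plus strand and Cxcr4 at chr1:128588199-128592293 on the minus strand. The Ccr9 model overlaps several other genes. The Cx3cl1 coding sequence was the longest of these ligands at 394 codons, followed by Cxcl16 at 245, the pair of chemokines in this set that are made as membrane-bound proteins on a stalk. The other ligands had 91 to 143 codons.

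Ccl25 was higher in Old brains than in New and WT brains, and its receptor Ccr9 was at or near 0 in every library. Ccl25 stood at 3.61, 4.71, 5.89 and 5.58 FPKM in Old 1 to 4, at 2.33, 2.13, 2.17 and 2.55 FPKM in New 1 to 4 and at 2.37, 1.72, 2.36 and 2.15 FPKM in WT 1 to 4. All 4 Old libraries lay above all 8 others, the lowest of them was Old 1, and the New and WT ranges overlapped. The means were 4.95 ± 1.02 FPKM in Old, 2.29 ± 0.189 FPKM in New and 2.15 ± 0.305 FPKM in WT (SD, n = 4 each). On the log2(FPKM + 0.1) scale Old minus WT was 1.15 (SE 0.15), a 2.22-fold difference, and Old minus New was 1.06 (SE 0.15), a 2.08-fold difference. New minus WT was 0.10, with a 95% interval of -0.24 to 0.43. The contrasts share groups, so these values are not independent of each other. In whole tissue, a change in the number of cells that make a transcript and a change in RNA per cell cannot be told apart. Without Old 1 and WT 4, Ccl25 averaged 5.39 ± 0.611 FPKM in Old and 2.15 ± 0.373 FPKM in WT (SD, n = 3 each), and the ratio of the means was 2.51.

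**Figure D1:**
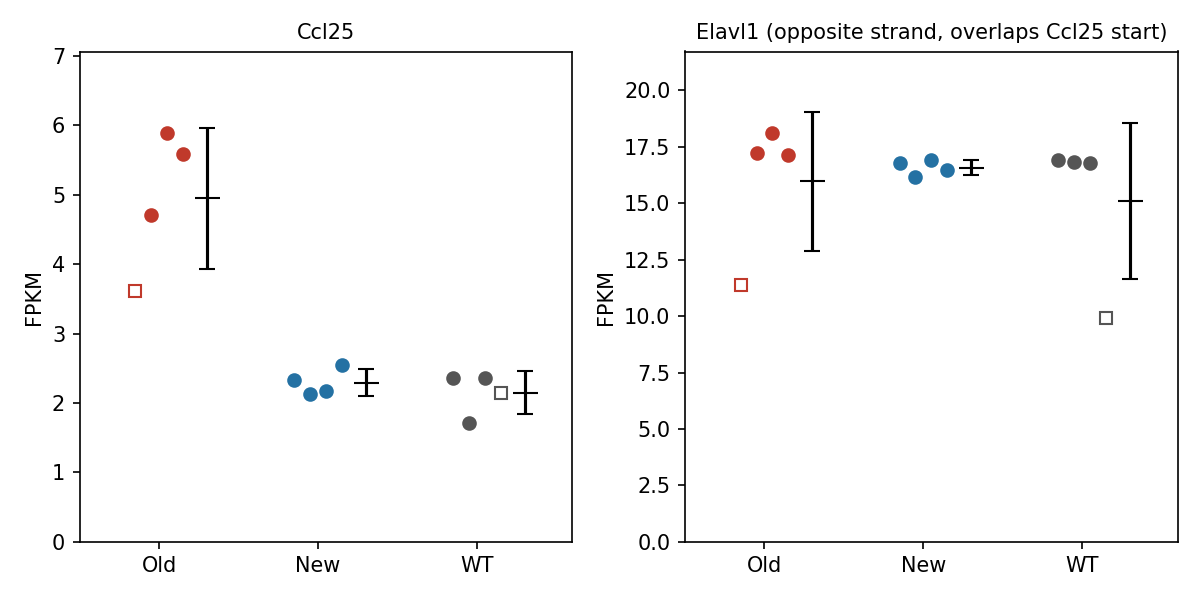
FPKM of Ccl25 (left) and of Elavl1, which overlaps its start on the opposite strand in GENCODE M21 (right), in 4 Old, 4 New and 4 WT libraries. Points are libraries, open squares are Old 1 and WT 4, and bars beside them are the mean ± SD. All 4 Old libraries lie above the New and WT libraries for Ccl25 (3.61 FPKM or more), while for Elavl1 the low values are Old 1 and WT 4.

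Of the 10 members, 6 passed the filter of a mean of 0.5 FPKM over the 12 libraries and entered the fit. For Ccl25 its outcome is given only as what it was picked on, not as a test. Ccl25 was the 1 member called between Old and WT, which is the contrast it was picked from, where 0.0247% of all tested genes were called (4 of 16203). Between New and WT 0 of the 6 were called, with 0.00617% of all tested genes called (1 gene, Plat), and between Old and New 0 of the 6, with 0.0123% called (2 genes, Sycp1 and Stxbp2). The call that singled out Ccl25 was kept in 10 of 25 alternative analyses and lost in the other 15. The difference was positive in all 25, which adds no support because Ccl25 was picked on this difference. Leaving out any single library other than Old 1 lost the call. For Old minus New, Ccl25 fell on the called side in 4 alternatives, with library weights, with a term for Old 1 and WT 4, without that pair and without Old 1. This contrast rests on the same Old libraries that Ccl25 was picked on, so these outcomes are not a test either.

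The receptor Ccr9 was listed at 0 in 9 of the 12 libraries. The exceptions were 0.00601 FPKM in Old 1, 0.00638 FPKM in Old 2 and 0.0126 FPKM in WT 2, levels at which no fold change was computed. The scavenger receptor Ackr4, which also binds Ccl25, was low as well, at 0.480 ± 0.148 FPKM in Old, 0.376 ± 0.0515 FPKM in New and 0.513 ± 0.203 FPKM in WT (SD, n = 4 each), and fell below the filter. Itgb7, the integrin chain that Ccr9-bearing gut-homing lymphocytes carry, averaged 0.269 FPKM in Old, 0.242 FPKM in New and 0.205 FPKM in WT. Ccl25 was thus present in all 12 libraries, while the receptor it signals through was at or near 0 in all of them.

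Markers of the cells that could bring Ccl25 or its receptor into the sample were summed. Of 18 lymphocyte markers 17 had a row and 3 passed the filter, none of them called in any contrast, and 0 were listed at 0 in every library. Their summed level was 6.00 to 8.24 FPKM in Old, 7.68 to 8.28 FPKM in New and 6.25 to 8.51 FPKM in WT libraries, so the groups overlapped. Itga4 (3.36 FPKM) and Cd4 (1.71 FPKM) were the highest of these markers on average, so the sums weigh them most. Itga4 was at 2.23 FPKM in Old 1 and 2.40 FPKM in WT 4, against 3.13 to 3.98 FPKM in the other libraries. Of 9 markers of thymic and intestinal epithelium 1 passed the filter (Lgr5) and 2 were listed at 0 in every library, and their sums overlapped too, at 1.47 to 2.03 FPKM in Old, 1.57 to 1.92 FPKM in New and 1.59 to 1.80 FPKM in WT. Endothelial markers (11 of 11 tested) summed to 63.2 to 64.9 FPKM in Old, 64.1 to 67.9 FPKM in New and 64.0 to 68.3 FPKM in WT. Oligodendrocyte markers (9 of 9 tested, 0 called) summed to 1634 to 1865 FPKM in Old and 1700 to 1857 FPKM in New, against 1548 to 1621 FPKM in WT, so both Plat-/- groups lay above WT. In each of the other lists, of 16 in all, the sums of both Plat-/- groups overlapped those of WT. The part of oligodendrocyte content in the Ccl25 difference was not tested.

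RefSeq gives Ccl25 a pair of transcription starts on the plus strand of chromosome 8 that lie 24.4 kb apart, and the promoter windows of both are shown because the FPKM of the gene pools transcripts from either. Lower case marks the 250 bases before the start and capitals the 50 bases after it (GRCm38.p6). The upstream window lies at chr8:4324960-4325259 and the downstream one at chr8:4349338-4349637.
Ccl25 upstream start: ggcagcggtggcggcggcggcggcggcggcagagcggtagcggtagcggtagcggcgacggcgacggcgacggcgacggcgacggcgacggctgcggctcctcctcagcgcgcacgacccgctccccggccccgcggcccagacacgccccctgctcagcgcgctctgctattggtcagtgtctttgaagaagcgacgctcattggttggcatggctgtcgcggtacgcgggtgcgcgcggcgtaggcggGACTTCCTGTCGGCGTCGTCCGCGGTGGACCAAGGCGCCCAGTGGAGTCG
Ccl25 downstream start: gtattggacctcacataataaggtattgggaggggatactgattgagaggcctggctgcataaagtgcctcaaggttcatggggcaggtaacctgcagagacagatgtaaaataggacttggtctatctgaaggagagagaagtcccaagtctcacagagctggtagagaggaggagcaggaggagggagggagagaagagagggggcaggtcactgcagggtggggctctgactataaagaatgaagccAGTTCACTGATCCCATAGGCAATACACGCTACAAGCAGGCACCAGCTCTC
The upstream window held 52 CpG dinucleotides at 74.0% GC, more CpG than 99.4% of the 32851 RefSeq windows of the same length, whose median was 7. Its start lies 110 bases from that of Elavl1, a gene for an RNA-binding protein that is read in the opposite direction. The downstream window held 1 CpG at 51.7% GC. It contained the letters TATAAA on the forward strand, beginning 16 bases before the start, whereas the upstream window had them on neither strand, and 13.6% of all windows hold them on either strand. The gene-level values cannot show which start was used in any group.

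In GENCODE M21, Ccl25 spans chr8:4325210-4360020 on the plus strand and shares its first 204 bases with Elavl1 on the minus strand. The library kit did not mark strand, so reads from that stretch could come from either gene. The RefSeq starts of the genes lie 110 bases apart and do not overlap, so the shared stretch depends on the annotation. Elavl1 stood at 11.4, 17.2, 18.1 and 17.1 FPKM in Old 1 to 4, at 16.8, 16.2, 16.9 and 16.5 FPKM in New and at 16.9, 16.8, 16.8 and 9.90 FPKM in WT. Old 1 and WT 4 were low, and Old 2 to 4 lay above all 4 New and all 4 WT libraries by a small margin, with Old 3 the highest, as it was for Ccl25. The part of reads shared between the genes in the Ccl25 difference was not tested. For Elavl1 the Old minus WT difference was 0.09 (SE 0.18; limma, adjusted p = 1). Without Old 1 and WT 4 the Elavl1 means were 17.5 ± 0.535 FPKM in Old and 16.8 ± 0.0688 FPKM in WT (SD, n = 3 each). The other 9 of the 10 tested genes nearest to Ccl25, the closest 5 on each side, of which the farthest (Efnb2) begins 4336 kb away, were called in none of the 3 contrasts either. Apart from Gm14378, their Old minus WT differences, with Elavl1 included, ran from -0.16 to 0.10. Gm14378 was at -1.71 (limma, adjusted p = 1), with all 4 Old libraries, from 0.398 to 1.52 FPKM, below all 4 WT libraries, from 1.97 to 6.83 FPKM. WT 4 held the 6.83 FPKM, and without Old 1 and WT 4 the means were 0.623 ± 0.195 FPKM in Old and 2.01 ± 0.0342 FPKM in WT (SD, n = 3 each). Stxbp2, which is not among these 10 and lies at -0.694 Mb from the start of Ccl25, was lower in Old, at 2.75 FPKM against 6.57 FPKM in New and 6.22 FPKM in WT.

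The genes whose pattern was most like that of Ccl25 were found by the root mean square difference between log2 deviations from each gene's own mean over the 12 libraries. The 5 closest of 16202 genes were 2610005L07Rik (0.219), the lincRNA Gm26853 (0.295), 6820431F20Rik (0.323), Akap14 (0.348) and Fcer2a (0.350), where the median gene was at 0.586 and Ccl25's own deviation from its mean was 0.557. Both Rik genes are annotated as transcribed pseudogenes, Akap14 encodes an anchor protein for protein kinase A, and Fcer2a encodes the low-affinity IgE receptor of B cells. Their Old minus WT differences were 0.79, 0.89, 0.94, 0.64 and 0.77 for 2610005L07Rik, Gm26853, 6820431F20Rik, Akap14 and Fcer2a. 6820431F20Rik, the highest of them, stood at 5.60, 11.0, 12.6 and 13.4 FPKM in Old 1 to 4, at 5.77, 6.04, 4.78 and 6.90 FPKM in New and at 6.28, 6.45, 5.36 and 3.40 FPKM in WT. Old 2 to 4 lay above all New and WT libraries, and Old 1 was among them. The likeness was chosen on the Ccl25 values and is a description without a test.

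Of these 5 genes 4 are on chromosome 8 and Akap14 is on the X chromosome. Fcer2a begins at 3681737, before Ccl25. Gm26853, 6820431F20Rik and 2610005L07Rik begin at 19789798, 20262613 and 20385782, in the stretch before Plat, which begins at 22757727, 18.4 Mb from Ccl25. Among the 20 genes most like Ccl25, 7 lay on chromosome 8 before Plat, and among the 50 most like it 8 did, sizes that were chosen after the values were seen. Of all 15897 tested genes with a position, 112 (0.705%) lie there.

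**Figure D2:**
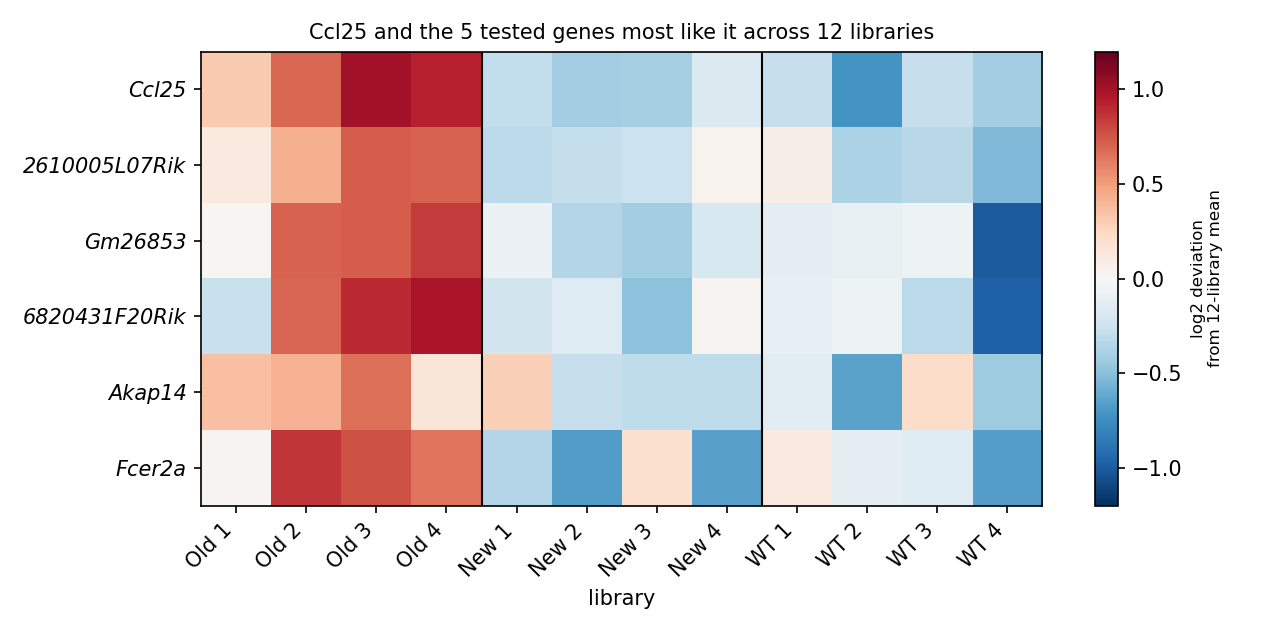
Log2 deviation from each gene's own mean over 12 libraries, on the log2(FPKM + 0.1) scale, for Ccl25 and the 5 tested genes with the most similar pattern (rows) in Old, New and WT libraries (columns); red is above and blue below the mean. Old 2 to 4 are above the mean in every row, and Old 1 is closer to the mean than they are in every row but Akap14.

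The levels of the members spanned more than 4 orders of magnitude. Over the 12 libraries Cx3cl1 averaged 144.6 FPKM, Ccl27a 70.0 FPKM, Cxcl14 20.5 FPKM, Cxcl12 11.8 FPKM and Ccl25 3.13 FPKM, and this order, with Ccl25 above Cxcr4, held in 12 of 12 libraries. Below them, Cxcr4 averaged 0.595 FPKM, Cxcl16 0.413 FPKM, Ccl3 0.191 FPKM, Ccl4 0.0257 FPKM and Ccr9 0.00209 FPKM. The neighbours Cxcr4 and Cxcl16 were not separated, since Cxcr4 was the higher in 9 of 12 libraries, and neither were Ccl4 and Ccr9, with Ccl4 higher in 4. Cxcl16 was above Ccl3 in 11 of 12 and Ccl3 above Ccl4 in 12. Cx3cl1 was above 98.6% of all tested genes and Ccl27a above 96.5%, while Ccl25 was above 34.1%.

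**Figure D3:**
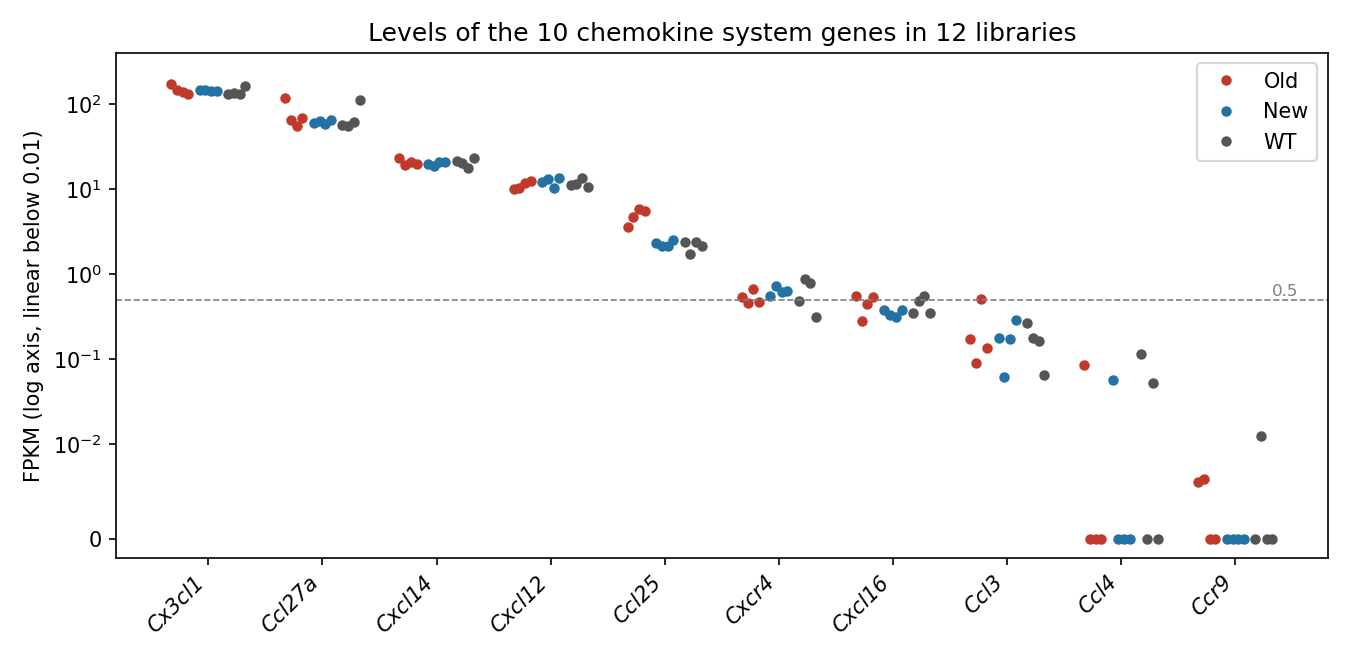
FPKM of the 10 genes in order of their mean, on a logarithmic axis that is linear below 0.01 FPKM, with 1 point for each library of the Old, New and WT groups; the dashed line is the filter of 0.5 FPKM. Cx3cl1, Ccl27a, Cxcl14, Cxcl12 and Ccl25 keep their order in every library, and the Old points are set apart from the other groups for Ccl25.

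Cx3cl1 encodes fractalkine, which neurons make and microglia sense through the receptor Cx3cr1. It stood at 173.3, 148.0, 141.0 and 132.0 FPKM in Old 1 to 4, at 148.0, 146.0, 142.7 and 141.3 FPKM in New and at 130.9, 134.7, 132.5 and 164.6 FPKM in WT. Old 1 and WT 4 held the highest values of their groups, and the Old and WT ranges overlapped. All 4 New libraries lay above WT 1 to 3 and below WT 4. The difference of Old minus WT was 0.08 (SE 0.10; limma, adjusted p = 1) and that of New minus WT 0.04 (SE 0.10; limma, adjusted p = 0.965). Without Old 1 and WT 4 the mean was 140.3 ± 7.99 FPKM in Old and 132.7 ± 1.95 FPKM in WT (SD, n = 3 each). Cx3cr1 averaged 8.10 ± 0.670 FPKM in Old, 8.52 ± 0.766 FPKM in New and 7.53 ± 0.778 FPKM in WT (SD, n = 4 each) and was called in none of the contrasts. Without Old 1 and WT 4 it averaged 8.42 ± 0.283 FPKM in Old and 7.91 ± 0.00686 FPKM in WT (SD, n = 3 each). Its gene model in GENCODE M21 overlaps several other genes, so its level is uncertain. The 15 microglial markers, all tested and none called, summed to 140.6 to 156.8 FPKM in Old, 143.7 to 149.6 FPKM in New and 138.0 to 153.5 FPKM in WT. Fractalkine is released from the membrane by the protease Adam10, which stood at 12.9 FPKM in Old 1 and 11.7 FPKM in WT 4 and at 20.8 to 22.6 FPKM in the other Old and WT libraries.

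Cxcl12, the ligand of Cxcr4, guides the migration of interneurons and of blood precursors, and the pair with Cxcr4 is the best studied chemokine axis of brain development. Cxcl12 stood at 10.1, 10.3, 11.7 and 12.4 FPKM in Old, at 12.2, 13.3, 10.4 and 13.7 FPKM in New and at 11.3, 11.6, 13.5 and 10.7 FPKM in WT, and all 3 ranges overlapped. Old minus WT was -0.09 (95% interval -0.33 to 0.15; limma, adjusted p = 1) and New minus WT 0.07 (-0.17 to 0.31; limma, adjusted p = 0.965). Cxcr4 stood at 0.538, 0.464, 0.672 and 0.472 FPKM in Old, at 0.559, 0.735, 0.614 and 0.628 FPKM in New and at 0.485, 0.874, 0.784 and 0.314 FPKM in WT. The WT values held both the highest library, WT 2, and the lowest, WT 4, which is among the libraries that stand apart. The intervals of Cxcr4 were wide, -0.66 to 0.47 for Old minus WT and -0.45 to 0.68 for New minus WT. Without Old 1 and WT 4 the Cxcr4 means were 0.536 ± 0.118 FPKM in Old and 0.714 ± 0.204 FPKM in WT (SD, n = 3 each). The decoy receptor Ackr3, which removes Cxcl12, was higher in level than Cxcr4, at 2.25 ± 0.146 FPKM in Old, 2.77 ± 0.304 FPKM in New and 2.18 ± 0.137 FPKM in WT (SD, n = 4 each). All 4 New libraries, from 2.50 to 3.11 FPKM, lay above the WT libraries, from 1.98 to 2.28 FPKM, and above the Old libraries, from 2.05 to 2.39 FPKM. The New minus WT difference of 0.33 (SE 0.10) had an unadjusted p of 0.0055 and did not pass in limma (adjusted p = 0.965).

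Ccl27a encodes the mouse form of cutaneous T cell-attracting chemokine, known from skin, whose receptor is Ccr10. It stood at 118.7, 64.8, 55.5 and 69.2 FPKM in Old, at 59.9, 62.6, 59.0 and 65.5 FPKM in New and at 57.1, 54.8, 61.8 and 110.7 FPKM in WT. Old 1 and WT 4, the libraries that stand apart, were at well above the level of the other 10, which ran from 54.8 to 69.2 FPKM. The Old minus WT difference was 0.12 (95% interval -0.43 to 0.66; limma, adjusted p = 1). Without the pair the means were 63.2 ± 7.03 FPKM in Old and 57.9 ± 3.60 FPKM in WT (SD, n = 3 each). Near-identical copies of this gene exist in mouse, and Ccl27b was listed at 0 in all 12 libraries, so the value may hold reads of more than 1 copy. Ccr10 was low, at 0.307 FPKM in Old, 0.206 FPKM in New and 0.322 FPKM in WT. Ccl28, the other ligand of Ccr10, averaged 1.11 ± 0.394 FPKM in Old, 1.30 ± 0.144 FPKM in New and 0.785 ± 0.417 FPKM in WT (SD, n = 4 each), with an unadjusted p of 0.0425 for New minus WT (limma, adjusted p = 0.965). WT 4, at 0.251 FPKM, was the lowest library for Ccl28, and without it the WT mean was 0.963 ± 0.265 FPKM (SD, n = 3).

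Cxcl14, a conserved chemokine found in interneurons and epithelia, stood at 23.4, 19.5, 20.6 and 19.7 FPKM in Old, at 19.8, 18.9, 20.7 and 20.9 FPKM in New and at 21.3, 20.4, 17.7 and 23.0 FPKM in WT. Old 1 and WT 4 again held the highest values, and the ranges overlapped. Old minus WT was 0.02 (95% interval -0.18 to 0.21; limma, adjusted p = 1) and New minus WT -0.03 (-0.23 to 0.17; limma, adjusted p = 0.973).

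**Figure D4:**
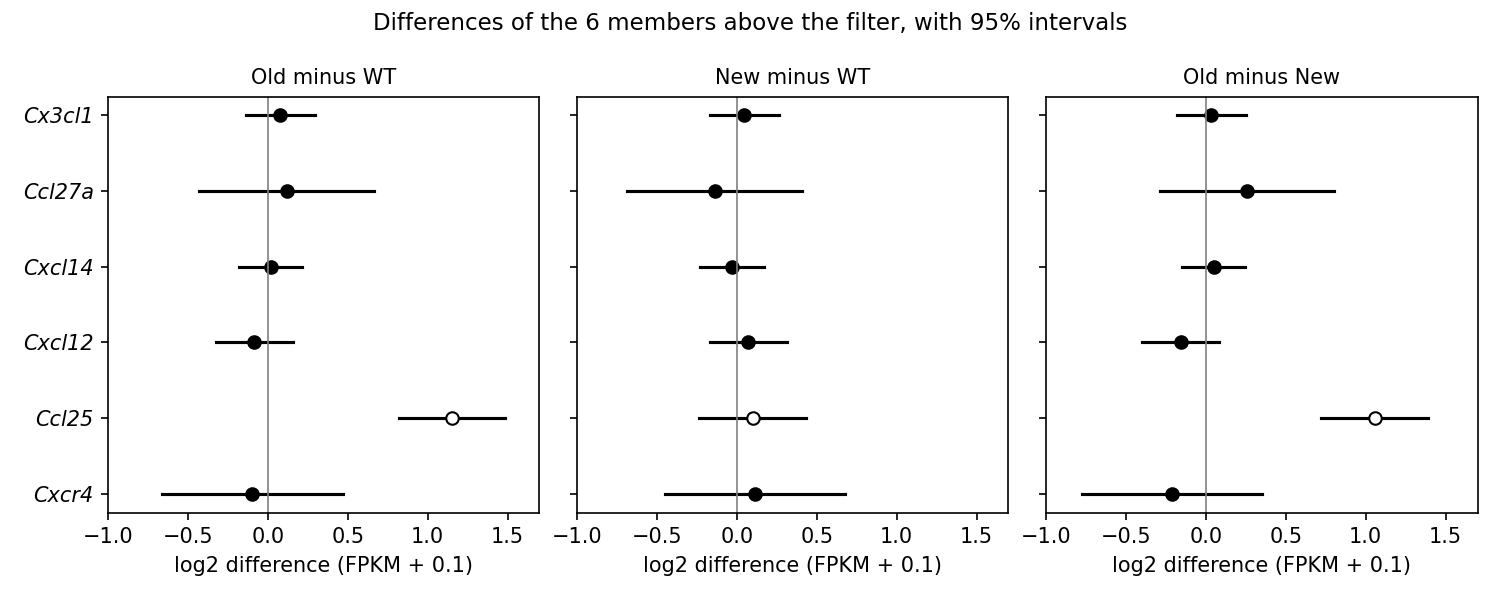
Log2 difference on the log2(FPKM + 0.1) scale, with its 95% interval, of the 6 members that passed the filter, for Old minus WT, New minus WT and Old minus New. Filled circles are members tested with limma, whose intervals all include 0; open circles are Ccl25, shown as a description, at 1.15, 0.10 and 1.06.

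Cxcl16, a membrane-bound chemokine and scavenger receptor that is read by Cxcr6, and Ccl3, a macrophage inflammatory protein, were below the filter and were compared by exact two-sided permutation tests. Cxcl16 stood at 0.555, 0.285, 0.444 and 0.534 FPKM in Old, at 0.378, 0.335, 0.316 and 0.376 FPKM in New and at 0.348, 0.487, 0.552 and 0.349 FPKM in WT. The New values lay close together and within the range of Old. The exact permutation p was 0.886 between Old and WT, 0.229 between New and WT and 0.171 between Old and New. Ccl3 stood at 0.174, 0.0911, 0.517 and 0.136 FPKM in Old, at 0.176, 0.0612, 0.173 and 0.288 FPKM in New and at 0.266, 0.178, 0.163 and 0.066 FPKM in WT, and Old 3 alone lifted the Old mean. The exact permutation p was 0.686 between Old and WT, 0.829 between New and WT and 0.686 between Old and New. Over the 6 tests the smallest adjusted exact p was 0.686, reached by Cxcl16. With 4 against 4 libraries, complete separation in a lone comparison would not have passed the threshold after this adjustment. The absence of a call here is therefore no evidence of equal levels. Ccl4, the close relative of Ccl3, was listed at 0 in 8 of 12 libraries and reached 0.0862 FPKM in Old 1, 0.0564 FPKM in New 1, 0.114 FPKM in WT 1 and 0.0523 FPKM in WT 3. Cxcr6, the receptor of Cxcl16, averaged 0.700 FPKM in Old, 0.485 FPKM in New and 0.706 FPKM in WT.

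**Figure D5:**
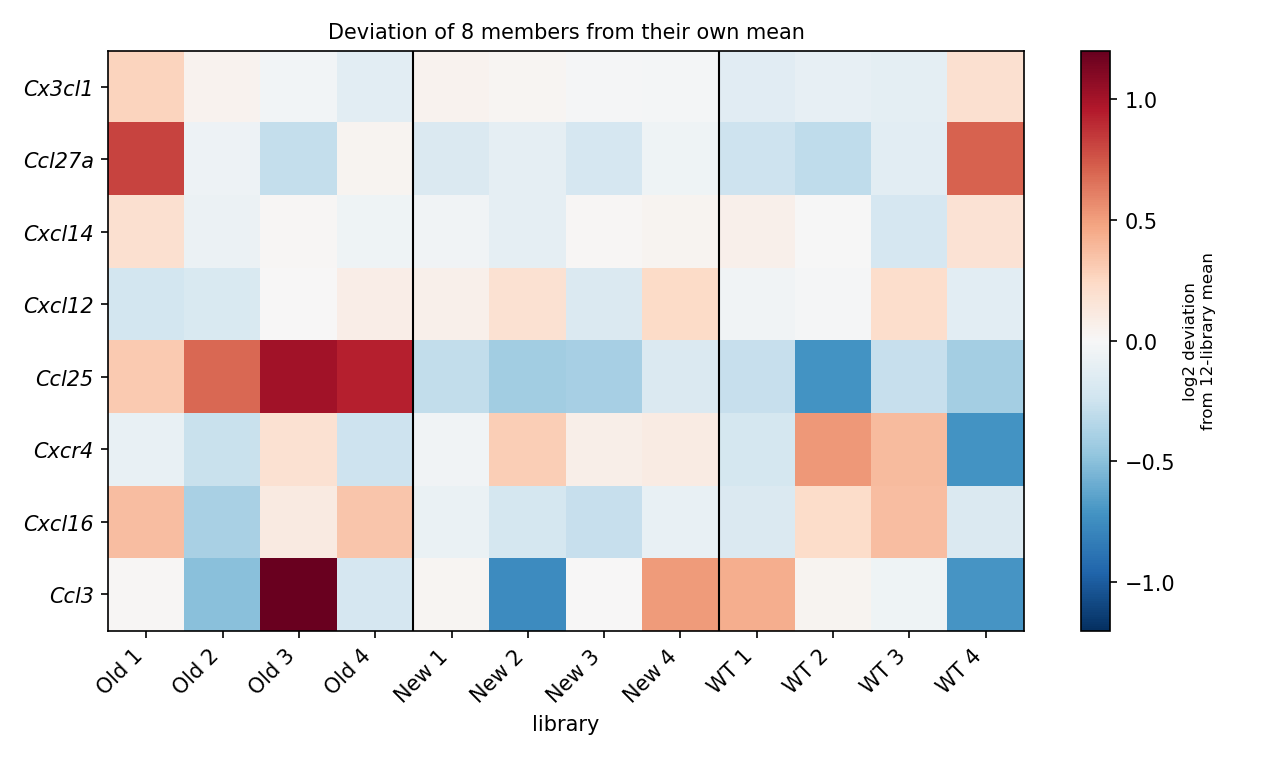
Log2 deviation from each gene's own mean over the 12 libraries, on the log2(FPKM + 0.1) scale, for 8 members (rows, by level) in Old, New and WT libraries (columns); red is above and blue below the mean, and Ccr9 and Ccl4 are left out as at or near 0. Ccl25 is above its mean in the 4 Old libraries and below it in the 8 others, while Cx3cl1, Ccl27a and Cxcl14 are highest in Old 1 and WT 4.

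The rest of the chemokine system gave no call. Of 32 other chemokine ligands 7 passed the filter and 4 were listed at 0 in every library. None of the 7 was called in any contrast, and their median difference was -0.29 for Old minus WT and -0.01 for New minus WT, beside 0.03 and 0.06 over all tested genes. All 7 were low, from 0.526 FPKM (Pf4) to 1.60 FPKM (Ccl19) on average. For Old minus WT 0 of them had an unadjusted p under 0.05 (limma), and a shift of the ligands as a set was not tested. The most abundant were Ccl19 and Ccl21a, ligands of Ccr7 that draw lymphocytes and dendritic cells into lymph nodes, at 1.60 and 1.18 FPKM over the 12 libraries. At an unadjusted p under 0.05 stood Ccl28 for New minus WT and 1 ligand for Old minus New, Cxcl17, at 0.566 ± 0.222 FPKM in Old and 0.903 ± 0.237 FPKM in New (SD, n = 4 each; limma, adjusted p = 0.985). Of 17 other receptors 4 were tested, and of 4 atypical receptors 3, with 0 calls in any contrast. The most abundant of these receptors was Ackr1, which presents chemokines on vessels, at 23.6 FPKM in Old, 25.8 FPKM in New and 22.8 FPKM in WT, and it shares 493 bases with Cadm3 on the same strand, so its level is uncertain.

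Genes that process chemokines or carry their signal gave no call either. In the 3 contrasts 4, 1 and 2 of all 16203 tested genes were called, so lists of this size, here and above, would rarely hold a call. The shares of all tested genes above 0 are not given here, so the counts above 0 are descriptions. Of 8 proteases that shed or trim chemokines 7 were tested and 0 called, with 3 of 7 above 0 and a median of -0.0021 for Old minus WT. For New minus WT 6 of 7 were above 0, with a median of 0.11 beside 0.06 over all genes, and for Old minus New 2 of 7, with a median of -0.11 beside -0.03. Of 26 genes for G proteins, arrestins and kinases downstream of the receptors 23 were tested and 0 called. In Old minus WT 20 of the 23 were above 0, with a median of 0.05 beside 0.03 over all genes, and in New minus WT 16 were above 0, with a median of 0.04 beside 0.06. By limma, 270, 360 and 184 genes had an unadjusted p under 0.05 for Old minus WT, New minus WT and Old minus New. Each count is below a share of 0.05 of the 16203 tested genes, which uniform p-values would give. The cause of this shortfall was not tested, and a gene without a call is not shown to be unchanged. Over the 5 members other than Ccl25 the adjusted p ran from 0.965 to 1 across the contrasts.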

How the data were processed

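Per the labels' protocols, RNA of frozen brain was polyA selected, made into libraries without strand marks (Illumina TruSeq mRNA v2) and sequenced in pairs, while a description calls it depleted of ribosomal RNA. The deposited table holds FPKM for 27131 genes in 12 libraries. Per the submitters' processing notes FastQC, TopHat2 2.0.9, Bowtie2 2.1.0, Cufflinks and Cuffdiff 2.1.1 were used with mm10; the sources used here give no settings. FPKM hold no counts, so depth is unknown and no counting interval was computed. FPKM sums ran from 385096 to 527104 per library, and 13755 to 14198 genes reached 1 FPKM. A gene listed at 0 is not shown to be silent.

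Genes with a mean of at least 0.5 FPKM (16203) were fitted as log2(FPKM + 0.1), 3 groups at once, by limma 3.58.1 with a trended prior (R 4.3.3). Folds refer to this scale, which makes those of low genes too small. P-values were adjusted by Benjamini and Hochberg's method across the tested genes (threshold 0.05). Cxcl16 and Ccl3 had exact permutation tests of 4 against 4 libraries on the log2 values. The fit was run on simulated data with independent noise for each gene. That noise lacked the shared shift of Old 1 and WT 4, so the fit was not tested in that setting. Coordinates are from GENCODE M21 and promoters from RefSeq (GRCm38.p6), with 8 of the 10 members matched to a promoter; 648 rows matched no annotation. P-values measure the spread between mice that may share litters.

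The members and all 16 gene lists were chosen with earlier results of these data known. Named were all members, from each list any called gene and the 4 with the highest mean, the 5 genes most like Ccl25, its nearest tested genes, genes overlapping a member, and Plat, Sycp1, Stxbp2, Elavl1 and Ddx3y. Some genes of this rule, and a sequence, are not reported here. Itgb7, Ccr10, Ackr4, Cxcl17 and Ccl27b were named after their values were seen or as partners of a member. Alternatives changed the pseudocount, filter, scaling, weights, trend, groups fitted, covariates and libraries.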

Additional observations from a re-analysis of the deposited data

Results flagged for a closer look

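In groups of 4, a library was taken as apart when its gap to the nearest other library exceeded 0.829 of the range of its group. Of 147 groups of 51 genes 23 met this, where chance gives about 1 in 20.

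Among the members, Ccl27a was at 110.7 FPKM in WT 4 beside 54.8 to 61.8 FPKM in the other WT libraries, and Cx3cl1 at 164.6 FPKM beside 130.9 to 134.7 FPKM. The receptors Cx3cr1 (6.36 FPKM) and Ackr3 (1.98 FPKM) were low in WT 4. Among the partners of the members, Elavl1 was low in Old 1 (11.4 FPKM) and WT 4 (9.90 FPKM), the protease Adam10 was low in Old 1 (12.9 FPKM) and WT 4 (11.7 FPKM), Ctsb was at 42.9 FPKM in Old 1, and Il11ra1, which overlaps 8 bases of Ccl27a, was at 2.26 FPKM in New 1. Of these 8 genes 7 were apart in Old 1 or WT 4, the libraries that resemble each other.

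Other ligands were Ccl19 at 1.88 FPKM in Old 1, Ccl17 at 0.387 FPKM in Old 4 and Ccl21a at 0.619 FPKM in New 1. Neighbours of Ccl25 were Gm14378 at 0.864 FPKM in New 2 and 6.83 FPKM in WT 4, Ctxn1 at 190.1 FPKM in WT 4, and Lass4 (6.77 FPKM) and Zfp958 (2.59 FPKM) in Old 1. Genes with a pattern like Ccl25 were 2610005L07Rik at 1.21 FPKM in New 4, Gm26853, the row ENSMUSG00000097230.1, at 0.984 FPKM in WT 4 and Akap14 at 0.648 FPKM in New 1. The last were Plat at 3.15 FPKM in New 3 and Sycp1 at 1.53 FPKM in Old 1.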

How the results depend on the processing

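Old minus WT for Ccl25 was 1.15 and ran from 0.91 (pseudocount of 1) to 1.30 over the alternatives, and from 1.05 to 1.29 with 1 library left out. The 4 calls of Old minus WT became 8 with library weights, 8 with a term for Old 1 and WT 4, 8 without that pair and 2 with only the compared groups fitted (3 to 4 with 1 library left out). The 1 call of New minus WT became 2 with library weights, with that term and without the pair. The 2 calls of Old minus New became 1 at a mean of at least 1 FPKM, 14 with library weights, 7 with the term, 6 without the pair and 4 with the GC trend removed, an alternative added after seeing the data (2 to 3 with 1 library left out). No gene of the lists was called in any of them.

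Differences near 0 changed sign, and no sign change of the 4 members tested with limma below passed the threshold. Ccl27a, New minus WT (-0.14), was 0.086 with library weights, 0.091 with the term and 0.093 without the pair, and Old minus WT (0.12) was -0.0095 with a Ddx3y term. Cx3cl1, New minus WT (0.04), was -0.013 under median ratio scaling. Its Old minus New (0.03) was -0.0065 under quantile normalization, -0.040 with library weights, -0.00035 with a Ddx3y term, -0.044 with the pair's term, -0.043 without the pair and -0.049 with the GC trend removed. Cxcl14, New minus WT (-0.03), was 0.025 with the term and 0.024 without the pair. Its Old minus New (0.05) was -0.0085 with the term, -0.0096 without the pair and -0.020 with the GC trend removed, and its Old minus WT (0.02) was -0.014 under median ratio scaling, -0.023 under quantile normalization, -0.0081 with a Ddx3y term and -0.028 with the GC trend removed. Cxcr4, New minus WT (0.11), was -0.092 with library weights, -0.00098 with the term and -0.12 without the pair, and Old minus WT (-0.10) was 0.0010 with a Ddx3y term. With 1 library left out, Ccl27a ran from -0.24 to 0.093 for New minus WT and -0.11 to 0.35 for Old minus WT, Cx3cl1 from -0.043 to 0.087 for Old minus New, Cxcl14 from -0.10 to 0.024 for New minus WT, -0.0096 to 0.078 for Old minus New and -0.053 to 0.072 for Old minus WT, and Cxcr4 from -0.12 to 0.29 for New minus WT and -0.33 to 0.078 for Old minus WT. The low genes Cxcl16 and Ccl3 moved too. Cxcl16, Old minus WT (0.04), was -0.33 under quantile normalization, -0.12 with library weights and -0.12 without the pair, and New minus WT (-0.23) was -0.66 under quantile normalization. Ccl3, New minus WT (0.02), was -0.46 under quantile normalization, -0.27 with library weights, -0.10 with the term, -0.19 without the pair, -0.07 with the GC trend removed and -0.0024 under median ratio scaling, and Old minus WT (0.20) was -0.04 under quantile normalization. With 1 library left out, Cxcl16 ran from -0.05 to 0.21 for Old minus WT, and Ccl3 from -0.16 to 0.41 for Old minus WT, -0.19 to 0.25 for New minus WT and -0.18 to 0.39 for Old minus New. The cause of these changes was not tested.

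Group size, the 2 libraries that stand apart and the unknown depth limit the precision of the low genes. No paired analysis was possible because the groups share no replicate numbers in the labels.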
